A study of Mus musculus with 4 samples.

Results

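The replication-dependent histone genes of the mouse were examined in 2 stretches of the mm10 genome, chr13:21700000-23780000, which holds the large Hist1 cluster, and chr3:96200000-96300000, which holds the small Hist2 cluster. All ATAC-seq peaks whose summit lay in these spans were taken, with no use of their strength. Peaks of the 4 libraries that overlapped by at least 1 bp were merged into regions, which gave 97 regions in the spans out of 36224 in the genome. The chromosome 13 span held 87 of the regions and the chromosome 3 span held 10. RefSeq placed 62 histone genes in the spans, 52 on chromosome 13 and 10 on chromosome 3, and each region was assigned to the histone gene it touched or lay nearest to. Here and below, a region touched a gene, or was at it, when it overlapped the gene or the 500 bp beyond either end. The same spans held 47 other protein-coding genes and 79 tRNA genes, which served as the comparison, and 2 histone pseudogenes that were not counted.

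ATAC-seq marks open chromatin by letting a transposase insert sequencing adapters into accessible DNA. The cells were thymocytes of the DN3 stage from the thymus of WT mice, meaning CD4- and CD8-negative T cell precursors that are rearranging their antigen receptor genes. DN3 cells were isolated by flow sorting and then passed over a magnetic column after labelling with a biotin-coupled antibody to EpCAM, a cell adhesion molecule. Cells held by the column made up the EpCAM-positive fraction and the unlabelled remainder the EpCAM-negative fraction, with 2 libraries each. The labels give no age or sex and name no separate mice behind the libraries, whose spread may be technical, and a p-value measures no more than that spread.

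Replication-dependent histone genes supply the histones that wrap newly copied DNA in S phase. H3 and H4 form the core tetramer of the nucleosome, H2A and H2B add to it as dimers, and H1 binds the linker DNA outside it. The genes lack introns, their mRNAs end in a stem-loop instead of a poly(A) tail, and many copies of each class sit side by side so that they can be transcribed together at the histone locus body, a nuclear compartment organised by NPAT.

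Histone genes were open in both fractions. Of the 62 genes, 47 had a peak over the gene or within 500 bp of either end in all 4 libraries (75.8%), 6 had one in some libraries and 9 in none. Of all 21887 protein-coding genes placed by RefSeq, 51.1% had a peak in all 4 libraries by the same window. Histone genes are short, with a median length of 494.5 bp, so their window is also short. Among the 1577 protein-coding genes of at most 1000 bp, 78 had a peak in all 4 libraries (4.95%), a set that includes most histone genes themselves. Its median length was 933 bp, so it was not matched to the histone genes in length. The set also holds receptor genes, such as vomeronasal ones of the spans, which had no peak in any library. Their share of the set was not counted. By class, a peak in all 4 libraries was found at 4 of 6 H1 genes, 12 of 16 H2A genes, 14 of 16 H2B genes, 8 of 12 H3 genes and 9 of 12 H4 genes.

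The number of histone genes with a peak was 49 and 50 in the EpCAM-positive libraries and 51 in each EpCAM-negative library. The means were 49.5 ± 0.707 and 51 ± 0 (SD, n = 2 each), a difference of -1.5 genes that gave p = 0.33 in a two-sided exact permutation test, the smallest p that 2 libraries against 2 allow. No histone gene had a peak in both libraries of 1 fraction and in neither of the other, a pattern that 1.3% of protein-coding genes showed for the EpCAM-positive pair and 0.265% for the EpCAM-negative pair.

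**Figure D1:**
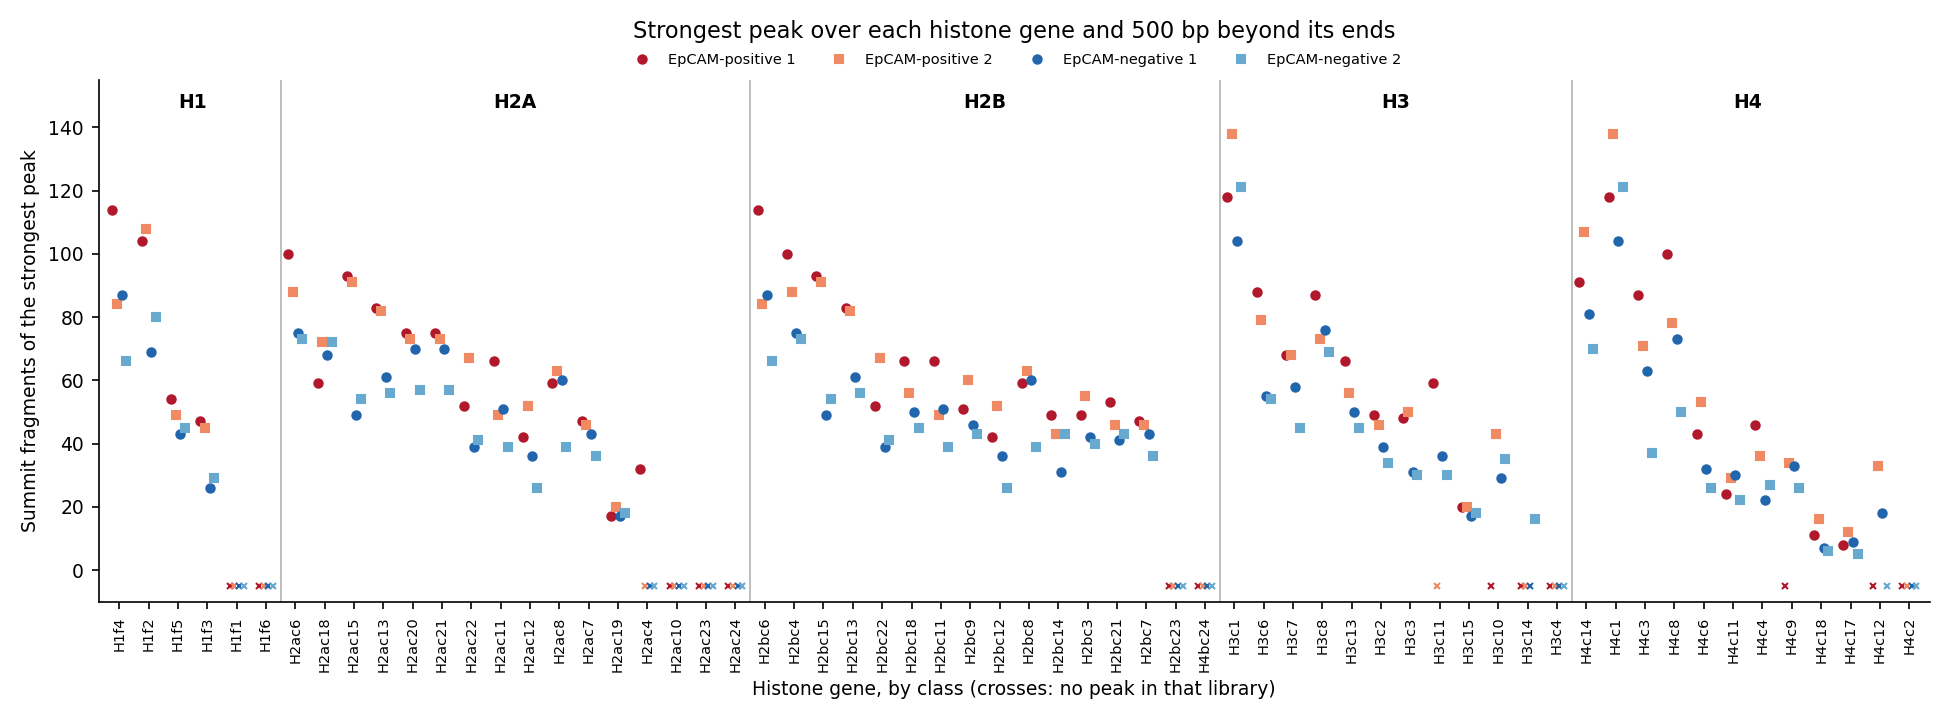
Summit fragments of the strongest peak (vertical axis, linear) for the 62 histone genes, ordered by class and by mean −log10 q. Each point is 1 library, crosses below 0 mark a library without a peak at that gene, and genes under the same peak show the same values; the points reach 138 at H3c1 and H4c1, while 9 genes have 4 crosses.

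Peak strength is given below as summit fragments, the pileup of fragments at the summit, solved from each peak's deposited fold and −log10 p. These values are not adjusted for depth. The lowest local background, a relative measure of depth, was 0.388 and 0.383 in the EpCAM-positive pair, compared with 0.29 and 0.286 in the EpCAM-negative pair, so a higher count in the EpCAM-positive pair is not by itself a difference. On this scale 49.4% of the 16761 regions called in all 4 libraries were higher in both EpCAM-positive libraries, and 5.2% in both EpCAM-negative ones. Beside the fragments, the text therefore gives percentile ranks of the region's fragments among those 16761 regions, taken within each library. Read totals were not used here. The lists held 26029 and 29030 EpCAM-positive peaks and 24598 and 25924 EpCAM-negative peaks, of which 78 and 85, and 79 and 74, had their summit in the histone spans. The lists also differed in where they stop, with lowest −log10 q values of 2.07 and 2.02 against 1.32 and 1.34. Of 8 DN3 marker genes, 6 had a peak in all 4 libraries, against 51.1% of protein-coding genes, Ptcra had one in 3 and Rag1 in none. Of the 4 genes listed for each other cell type, 1 had a peak in all 4 libraries for B cells (Pax5), 1 for thymic epithelium (Foxn1) and 0 for myeloid cells.

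Promoter sequences of 5 histone genes, 1 per class, are printed first to show where the motifs lie in an open promoter. Only genes with a single RefSeq start and a peak over the promoter in all 4 libraries were considered. Of these, the gene with the highest mean −log10 q of its class was taken. H2bc6, which has 2 start sites, was thus left out, though its mean −log10 q was 67 against 48.5 for H2bc15. It holds an octamer at -67 from 1 of its starts. H4c1 and H2bc15 lack the motif known for their class (the H4 site II core and the octamer). Each is the 200 bases upstream of the RefSeq start (GRCm38.p6), 5′ to 3′ in the direction of transcription. Capitals mark matches on either strand to TATAAA (the TATA box), CCAAT (the CCAAT box), ATTTGCAT (the octamer, a binding sequence of POU2F1), AAACACA (the H1 box) and GGTCCG (the core of H4 site II, the binding sequence of HINFP). No motif contains another.
H1f2, chr13:23738607-23738806, plus strand: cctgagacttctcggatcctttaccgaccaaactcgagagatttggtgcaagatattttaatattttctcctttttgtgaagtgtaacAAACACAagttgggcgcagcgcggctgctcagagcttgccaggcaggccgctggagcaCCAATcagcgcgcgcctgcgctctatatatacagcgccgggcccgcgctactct
H2ac6, chr13:23683960-23684159, minus strand: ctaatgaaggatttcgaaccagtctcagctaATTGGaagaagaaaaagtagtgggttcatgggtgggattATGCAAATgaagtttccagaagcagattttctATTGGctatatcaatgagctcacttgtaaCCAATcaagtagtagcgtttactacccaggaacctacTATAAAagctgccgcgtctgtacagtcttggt
H2bc15, chr13:21753876-21754075, plus strand: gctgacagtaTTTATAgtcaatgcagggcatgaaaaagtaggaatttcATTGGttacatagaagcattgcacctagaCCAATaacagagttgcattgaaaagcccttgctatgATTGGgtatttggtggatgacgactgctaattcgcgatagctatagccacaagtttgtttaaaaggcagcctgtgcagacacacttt
H3c6, chr13:23562386-23562585, minus strand: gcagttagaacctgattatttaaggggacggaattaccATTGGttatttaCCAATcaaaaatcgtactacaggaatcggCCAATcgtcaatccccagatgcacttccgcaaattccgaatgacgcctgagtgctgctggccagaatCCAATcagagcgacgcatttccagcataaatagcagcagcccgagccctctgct
H4c1, chr13:23761250-23761449, minus strand: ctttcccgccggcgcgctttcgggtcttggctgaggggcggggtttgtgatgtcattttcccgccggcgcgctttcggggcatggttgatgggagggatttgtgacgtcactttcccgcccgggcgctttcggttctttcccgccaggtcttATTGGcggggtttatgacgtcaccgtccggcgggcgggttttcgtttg
The H1f2 promoter held an H1 box at -112 and a CCAAT box at -54 from the start. The H2ac6 promoter held an octamer on the reverse strand at -130, a TATA box at -32 and 3 CCAAT boxes. The H3c6 promoter held 4 CCAAT boxes and none of the other motifs.

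RefSeq promoter sequences (250 bases before to 50 after the start) were matched for 57 of the 62 histone genes. H3c7, H2bc4, H3c1, H2bc21 and H4c14 had no entry. The CCAAT box was found in 49 of the 57 promoters, against 37.4% of all 32851 promoters of the same length. It was present in all 6 H1, 16 H2A, 14 H2B and 10 H3 promoters and in 3 of the 11 H4 promoters. TATAAA was found in 32 histone promoters, against 13.6% of all promoters, on either strand and at any position. Of its 28 matches on the sense strand, 13 began between -45 and -20. The octamer was found in 5 of 16 H2A and 6 of 14 H2B promoters and in no H1, H3 or H4 promoter, against 1.74% of all promoters. All H2A matches lay on the reverse strand and all H2B matches on the sense strand. Promoter windows of divergent H2A and H2B genes can overlap, so the same site can count for both genes, for any of the motifs. The octamer of H2ac12 is the same site as that of H2bc12, and the octamer of H2ac8 the same as that of H2bc8. The H1 box was found in 5 of 6 H1 promoters, always between -122 and -112, with H1f1 as the exception, against 7.18% of all promoters. The H4 site II core was found in 10 of 11 H4 promoters, with H4c1 as the exception, at a median position of -46, against 8.25% of all promoters. These are matches of letters in a window and not measured binding.

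**Figure D2:**
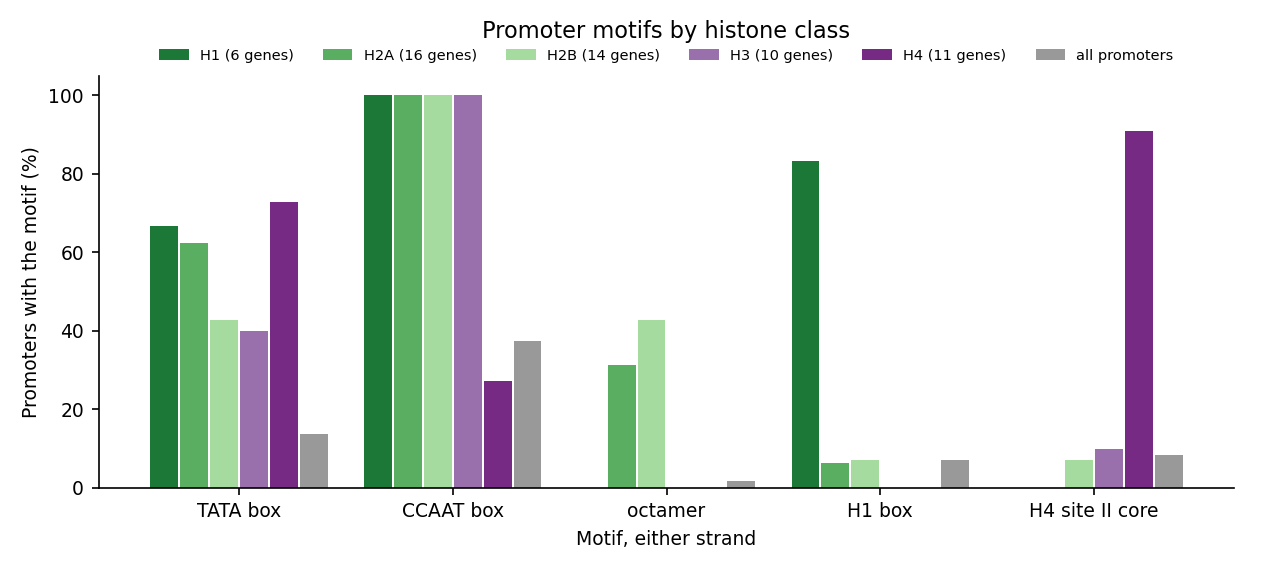
Percent of promoters with each of 5 motifs on either strand (vertical axis, from 0), for the 57 histone promoters by class and for all 32851 promoters in grey. The CCAAT bars reach 100% in H1, H2A, H2B and H3, while the H1 box and the H4 site II core stand high in 1 class each.

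Among the H1 genes, 4 had a peak in all 4 libraries. H1f4, a somatic linker histone, showed 114 and 84 summit fragments in the EpCAM-positive pair, compared with 87 and 66 in the EpCAM-negative pair. H1f2, another somatic linker histone, had 104 and 108 against 69 and 80. H1f5, also somatic, had 54 and 49 against 43 and 45. By rank the fractions overlapped at H1f4 and at H1f5, where the mean percentile was 72.5 in the EpCAM-positive libraries and 74.8 in the EpCAM-negative ones. The H1f2 region ranked higher in both EpCAM-positive libraries, at 93.1 and 93.2 against 88 and 91.7. H1f3 was the weakest of the 4, with 47 and 45 against 26 and 29. The strongest summit of H1f4, H1f2 and H1f5 lay past the 3′ end of the gene, by 286, 276 and 113 bp. The H1f4 summit is in a region of 1586 bp that also touches H2bc6, whose RefSeq model is 37455 bp long. The H1f2 region (chr13:23738623-23740139) touched no other histone gene and reached from the promoter to beyond the 3′ end. The H1f5 region (chr13:21779297-21780026) touched no other histone gene either and did not reach the H1f5 promoter window, which had no peak in any library. A second H1f3 region, with its summit 76 bp past the 3′ end, was called in 3 libraries with 31, 29 and 22 fragments.

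Among the H2A genes, H2ac6 showed 100 and 88 summit fragments in the EpCAM-positive pair, compared with 75 and 73 in the EpCAM-negative pair. H2ac15 had 93 and 91 against 49 and 54. Both shared their peak with the H2B gene across a common promoter, so the values belong to the pair: H2ac6 with H2bc4, and H2ac15 with H2bc15. H2ac18 (chr3:96245497-96246052) had 59 and 72 against 68 and 72, and was the strongest H2A gene whose region touched no other histone gene. By rank the H2ac6 region overlapped between fractions, at 92.4 and 89.1 against 89.9 and 89.9. The H2ac15 region ranked higher in both EpCAM-positive libraries and the H2ac18 region in both EpCAM-negative ones. H2ac4 was called in EpCAM-positive library 1 alone, with 32 fragments.

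Among the H2B genes, the 3 with the highest mean −log10 q all shared a region: H2bc6 with H1f4, H2bc4 with H2ac6 and H2bc15 with H2ac15. Their values are those given for the partner genes. Across both spans 18 regions touched at least 2 histone genes, and 15 of them were called in all 4 libraries. Of these 15, 8 joined 1 H2A gene and 1 H2B gene. In the 8 H2A genes of these pairs and in H2ac18, the summit lay 132 to 257 bp upstream of the H2A start. In the 11 H2B genes with a single start site in RefSeq and a peak in all 4 libraries, the summit lay between -42 and 52 bp of the H2B start, with a median of -9 bp. The summit of a pair was thus nearer to the H2B start than to the H2A start.

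Among the H3 genes, H3c1 (chr13:23761885-23762386) had the most summit fragments of any histone gene, together with H4c1. By mean −log10 q, other genes stood above its 64.8, among them H4c14 at 74 and H1f4 at 67. The H3c1 peak, shared with the divergent gene H4c1, showed 118 and 138 summit fragments in the EpCAM-positive pair, compared with 104 and 121 in the EpCAM-negative pair, and the groups overlapped. H3c6, which encodes a core H3, had 88 and 79 against 55 and 54. H3c7 had 68 and 68 against 58 and 45. By rank H3c6 was higher in both EpCAM-positive libraries, at 89.8 and 86.4 against 81.8 and 82.1, and H3c7 overlapped, at 82.9 and 82.2 against 83.4 and 76.1. In the 4 H3 genes with a peak in all 4 libraries, a single start site and the strongest summit in the gene, it was 13 to 64 bp past the start. H3c11 had 59 fragments in EpCAM-positive library 1 and 36 and 30 in the EpCAM-negative libraries, with no peak in EpCAM-positive library 2. H3c10 had 43 fragments in EpCAM-positive library 2 and 29 and 35 in the EpCAM-negative libraries, with no peak in EpCAM-positive library 1. H3c14 was called in EpCAM-negative library 2 alone, with 16 fragments.

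Among the H4 genes, H4c14 (chr3:96262934-96263317) showed 91 and 107 summit fragments in the EpCAM-positive pair, compared with 81 and 70 in the EpCAM-negative pair. H4c1 carried the peak it shares with H3c1, with its summit 189 bp upstream of the H4c1 start. H4c3 had 87 and 71 against 63 and 37. By rank both overlapped between fractions, H4c14 at 90.4 and 93 against 91.5 and 89, and H4c3 at 89.5 and 83.5 against 85.7 and 68.6. H4c9 had 34 fragments in EpCAM-positive library 2 and 33 and 26 in the EpCAM-negative libraries, and H4c12 had 33 in EpCAM-positive library 2 and 18 in EpCAM-negative library 1. The genes called in some libraries thus differed in which library lacked the peak. EpCAM-positive library 1 lacked a peak at 4 of the 6 (H3c10, H4c12, H4c9 and H3c14).

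**Figure D3:**
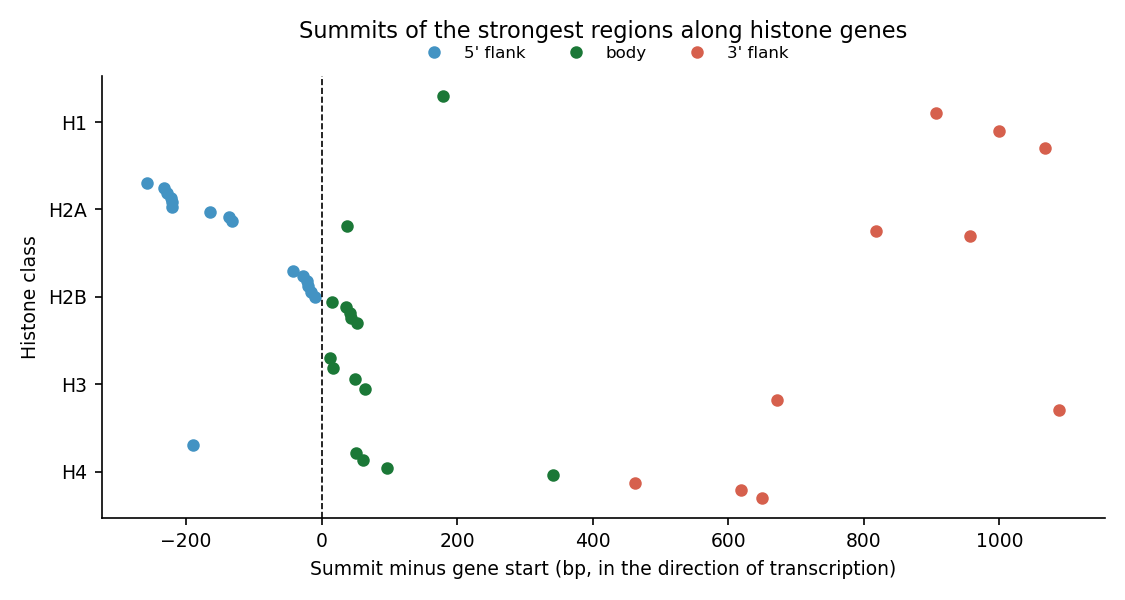
Position of the strongest summit from the gene start (horizontal axis, bp in the direction of transcription) for 41 histone genes with a single RefSeq start and a peak in all 4 libraries, 1 point per gene, by class (vertical axis). The H2B points cluster at the start, 9 H2A points lie 132 to 257 bp upstream, and 10 points lie past the 3′ end of the gene.

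Of these 41 genes, 16 had the summit in the 5′ flank, 15 in the gene and 10 past the 3′ end. Beside the 3 H1 genes, the summits past the 3′ end belonged to H4c8 (29 bp), H4c18 (213 bp), H4c17 (246 bp), H3c15 (24 bp), H2ac19, H2ac20 and H3c13. The region of H2ac19, of H2ac20 and of H3c13 touched a neighbouring histone gene as well. H4c8 had 100 and 78 summit fragments against 73 and 50, and its region covered its promoter. In all, 6 genes had a peak in all 4 libraries by the wide window and none over the promoter: H1f4, H1f5, H2ac19, H3c13, H4c17 and H4c18. Over the promoter window alone, 34 of 57 histone genes had a peak in all 4 libraries (59.6%), against 41.2% of 17492 protein-coding genes, and 16 had none in any library.

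The 9 genes without any peak were H2bc23, H2ac23, H2ac24, H4bc24, H2ac10, H3c4, H1f6, H4c2 and H1f1. H4bc24 is the RefSeq symbol of the former Hist1h2br, an H2B gene. H1f6 encodes H1t, the linker histone of the testis. H1f1 (chr13:23763668-23764412) is the neighbour of H3c1, which with H4c1 had the most summit fragments of the spans. The promoters of 3 of these genes are printed for comparison with the open ones above, with the same capitals.
H1f1, chr13:23763468-23763667, plus strand: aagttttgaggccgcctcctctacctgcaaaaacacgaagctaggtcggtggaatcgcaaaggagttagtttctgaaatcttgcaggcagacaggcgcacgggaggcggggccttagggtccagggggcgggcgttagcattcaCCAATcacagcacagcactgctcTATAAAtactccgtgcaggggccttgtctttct
H4c2, chr13:23756737-23756936, plus strand: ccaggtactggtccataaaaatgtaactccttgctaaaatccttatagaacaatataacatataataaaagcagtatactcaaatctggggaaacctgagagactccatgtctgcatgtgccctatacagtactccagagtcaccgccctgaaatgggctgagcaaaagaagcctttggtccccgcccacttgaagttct
H3c4, chr13:23575563-23575762, plus strand: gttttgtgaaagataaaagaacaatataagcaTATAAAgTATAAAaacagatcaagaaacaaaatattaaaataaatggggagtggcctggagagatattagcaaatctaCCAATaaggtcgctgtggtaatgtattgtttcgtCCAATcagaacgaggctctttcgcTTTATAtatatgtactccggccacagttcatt
H1f1 held a TATA box at -33 and a CCAAT box at -56 and was the 1 H1 promoter without AAACACA. The H4c2 stretch held none of the 5 motifs, its GGTCCG match lying at position 6 inside the gene, and H3c4 held 2 CCAAT boxes and 3 TATAAA matches. Over all 9 genes without a peak, CCAAT was found in 8, TATAAA in 2, the octamer in 0, the H1 box in 1 and GGTCCG in 1. Over the 42 genes with a promoter entry and a peak in all 4 libraries, the counts were 37, 25, 10, 5 and 8. Among the 9, H2bc23 with H4bc24 and H2ac23 with H2ac24 are pairs of near-copies, described in the next paragraph. These 4 genes hold CCAAT but no TATAAA, their shared sequence counts for both genes of a pair, and their lack of a peak is uncertain. Of the 42, 5 are near-copies too. Whether motifs and peaks go together was not tested.

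Several histone genes are near-copies, and fragments from copies may not be told apart. Of the 57 promoters, 5 pairs shared an identical run of at least 200 of their 300 bases: H2bc23 and H4bc24 (300), H4c17 and H4c18 (285), H3c15 and H3c14 (231), H2ac19 and H2ac18 (219), and H2ac23 and H2ac24 (200). The next longest run was 72, between H4c11 and H4c12. Of these 10 genes 5 had a peak in all 4 libraries, 1 in some and 4 in none. Of the other 52 genes the counts were 42, 5 and 5 (80.8% in all 4). These 52 include H3c7, H2bc4, H3c1, H2bc21 and H4c14, which had no promoter entry and so could not be compared. Each of them had a peak in all 4 libraries. H4c17 showed 8 and 12 summit fragments in the EpCAM-positive pair, compared with 9 and 5 in the EpCAM-negative pair, and H4c18 had 11 and 16 against 7 and 6. The strongest of the 10 was H2ac18, with a mean of 67.8 over the 4 libraries, and the median over those with a peak was 17, against 51.3 for the other genes. The sources used here do not say how the authors treated fragments that fit several places, so the values of these 10 genes are uncertain, and the part of the copies in them was not tested.

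Along the chromosome 13 span the open regions lay in separate stretches. The longest gap between regions called in all 4 libraries was 1317 kb, from chr13:22051378 to chr13:23368802, and held 37 protein-coding genes, 36 of them vomeronasal or olfactory receptor genes, which are known from sensory neurons. The gap held 4 regions called in fewer libraries. Of the 37 receptor genes in the spans, 0 had a peak in any library, and of the other 10 non-histone genes 5 had one in all 4 libraries. Zfp322a, a zinc finger gene, showed 57 and 43 summit fragments in the EpCAM-positive pair, compared with 33 and 29 in the EpCAM-negative pair. Abt1, which encodes an activator of basal transcription, had 37 and 45 against 27 and 37, and Zfp184, another zinc finger gene, had 38 and 50 against 34 and 31. By rank Zfp322a was higher in both EpCAM-positive libraries, at 76.8 and 64.3 against 62.7 and 57.6, and Zfp184 and Abt1 overlapped. Prss16, a serine protease of the thymic epithelium, had 36 and 24 against 22 and 19, but these strongest peaks lay in different regions. At a single Prss16 region, chr13:22006087-22006470, the values were 36 and 22 against 22 and 17. Hfe, an iron regulator, was the weakest of the 5, with 12 and 16 against 16 and 24. By rank Hfe was higher in both EpCAM-negative libraries, at 9.48 and 17.4 in the EpCAM-positive pair against 28 and 48.6. Pom121l2 was called in EpCAM-positive library 2 alone. Of the 79 tRNA genes, 15 had a peak in all 4 libraries (19%) and 49 in none.

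**Figure D4:**
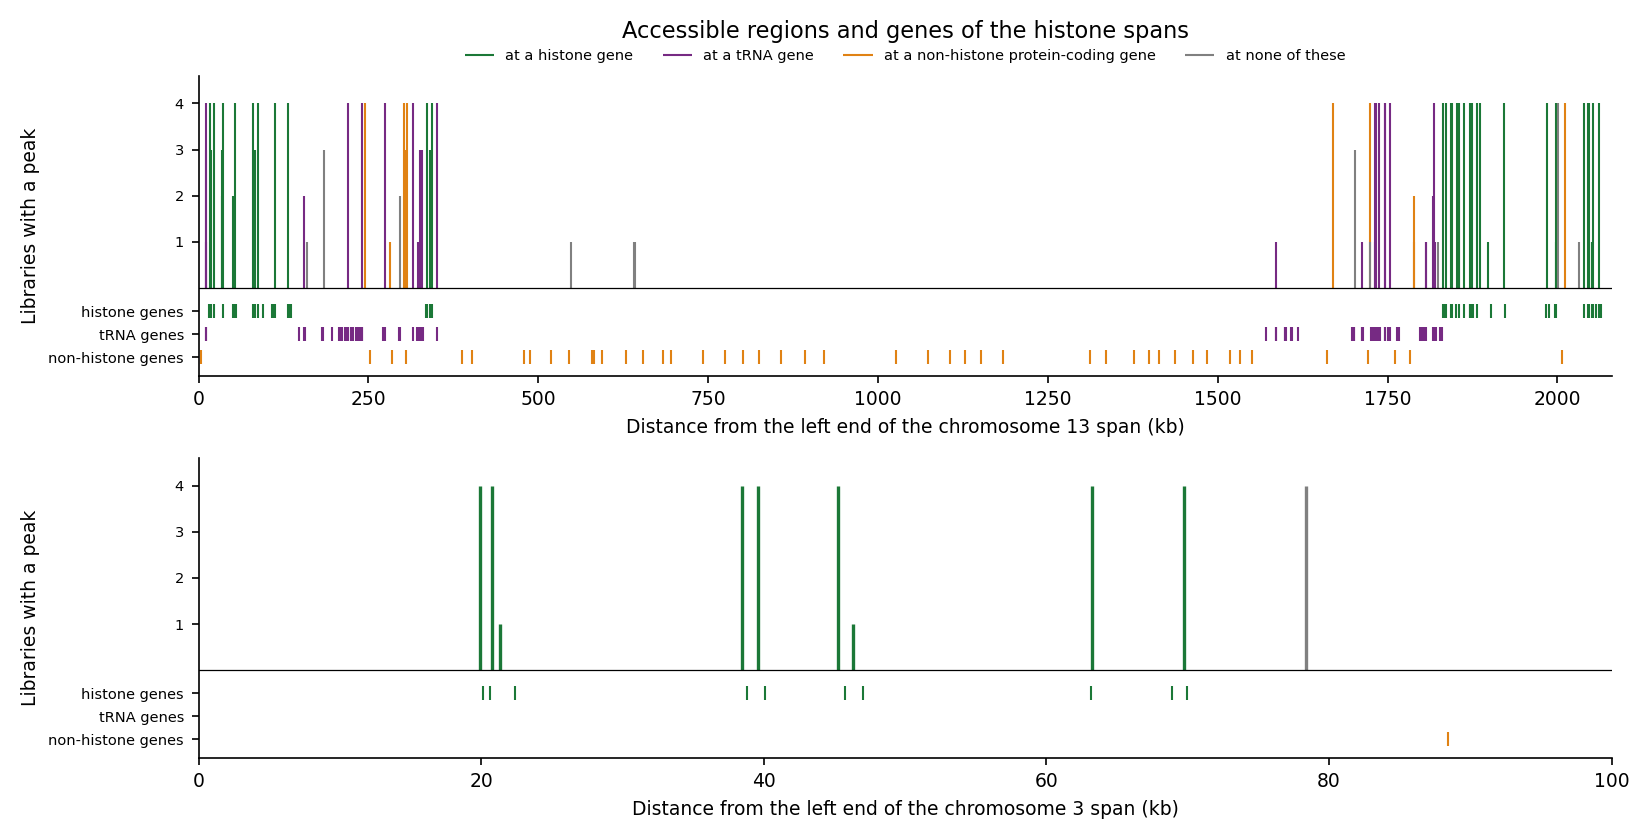
Regions and genes of the chromosome 13 span (upper panel) and the chromosome 3 span (lower panel), by distance from the left end of the span in kb. Vertical lines give the number of libraries, 1 to 4, with a peak in each of the 97 regions, coloured by what the region touches, and ticks below 0 mark the genes; the long stretch of receptor genes on chromosome 13 has no region called in more than 1 library.

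By region, 57 of the 97 were called in all 4 libraries (58.8%), against 46.3% over the genome. Of the 49 regions at histone genes 36 were shared by all 4 libraries (73.5%) and 6 came from 1 library. Of the 26 regions at tRNA genes 13 were called in all 4, of the 10 at non-histone protein-coding genes 6, and of the 12 at none of these 2. The 36 shared regions at histone genes had a median width of 750.5 bp, from 342 to 1586 bp, against a median of 681 bp over the genome. Their median local background was 5.66 and 5.18 fragments in the EpCAM-positive pair, compared with 4.13 and 3.83 in the EpCAM-negative pair, above the genome's medians for shared regions of 2.3 and 2.23, and 1.66 and 1.59, in each library. Their median fold over that background, as the authors' caller gave it, was 8.22, 8.9, 8.57 and 8.82, below the genome's 9.44, 9.94, 9.62 and 9.75. The strongest peaks at histone genes had a median percentile within their own lists of 76.1 by −log10 q and of 57.7 by fold.

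Regions called in both libraries of 1 fraction and in neither of the other were few. There were 4 EpCAM-positive-only regions among the 97, against 4.4% of all regions, and 0 EpCAM-negative-only regions, against 1.72%. The region at a histone gene, chr13:21734737-21734976, had its summit 261 bp from H4c11 on its 5′ side, with 12 and 14 summit fragments. It was 26 bp from a peak of the EpCAM-negative fraction. H4c11 itself was covered in all 4 libraries by another region, with 24 and 29 against 30 and 22 fragments, and these groups overlapped. The region chr13:21855798-21856037 had 10 and 7 fragments and overlapped the tRNA gene n-TTagt4, with its summit 174 bp away. Its nearest histone gene was H4bc24, one of the genes without a peak. The region chr13:23516979-23517228 had 19 and 31 fragments and overlapped the tRNA gene n-TGgcc6, with its summit 105 bp away. Its edge was 481 bp from an EpCAM-negative peak. The region chr13:23488600-23488877 touched Btn2a2, a butyrophilin gene of the immunoglobulin superfamily, with 14 and 11 fragments, and no EpCAM-negative peak lay within 28832 bp. H4c8 was the nearest histone gene of the last 2 regions, at 13946 and 42298 bp from their summits. Leaving out 1 library moved the EpCAM-positive-only count to between 7 and 13 and the EpCAM-negative-only count to between 2 and 6. In each case 1 call, or 1 missing call, then makes up a fraction. The count was 13 without EpCAM-positive library 1 and 11 without EpCAM-positive library 2.

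To compare the fractions on a scale less tied to depth, the summit fragments of the 16761 regions called in all 4 libraries were ranked within each library, and a region's percentile was read in each. The median percentile of the 36 histone regions was 74.5 and 75.1 in the EpCAM-positive pair, compared with 74.7 and 73.5 in the EpCAM-negative pair. The means, 74.8 ± 0.44 and 74.1 ± 0.857 (SD, n = 2 each), differed by 0.714, within the spread between libraries (two-sided exact permutation test, p = 0.67). Of the 36 regions, 12 ranked higher in both EpCAM-positive libraries than in both EpCAM-negative ones, against 22% of all shared regions, and 2 ranked higher in both EpCAM-negative libraries, against 21.6%. The other 22 overlapped. Ranked by −log10 q, the counts were 9 and 4, against 21% and 20.6% of all shared regions. Both measures come from the same peaks, so the second is not an independent check of the first. A count of regions is not a count of libraries, and the library medians overlapped between the fractions. Single regions were not tested, since an exact test of 2 libraries against 2 cannot go below p = 0.33.

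The H1f3 region ranked at the 69.2 and 66.3 percentile in the EpCAM-positive libraries and at 51.2 and 57.6 in the EpCAM-negative libraries. The H4c4 region ranked at 68.4 and 56.1 against 43.1 and 54.3, and the H4c6 region at 65.5 and 73.5 against 61.3 and 52.4. Each of these 3 was higher in both EpCAM-positive libraries. The H3c3 region ranked at 70.1 and 71.1 against 59.9 and 59.1, the weak H4c18 region at 7.17 and 17.4 against 1.83 and 0.659, and the pair of H2ac15 and H2bc15 at 90.9 and 89.8 against 78.1 and 82.1. These 6 had the largest mean difference among the 12 regions higher in both EpCAM-positive libraries, and they were named after their values were seen. On the other side, H2ac18 ranked at 78.0 and 83.9 in the EpCAM-positive libraries and at 87.5 and 89.6 in the EpCAM-negative libraries. The region between H3c15 and H2ac19 ranked at 22.0 and 27.2 against 30.9 and 33.7. Both of these regions lie at near-copies, whose values are uncertain. So do the H4c18 region and another region at H3c15, which ranked higher in both EpCAM-positive libraries. The region with the most summit fragments, at H4c1 and H3c1, ranked at a mean of 95.7 in the EpCAM-positive libraries and 96.4 in the EpCAM-negative libraries, and its values overlapped.

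The 13 shared regions at tRNA genes ranked lower than the histone regions in each library. Their median percentile was 47.1 and 54.7 in the EpCAM-positive pair, compared with 40.8 and 41.7 in the EpCAM-negative pair. The means, 50.9 ± 5.37 and 41.2 ± 0.624 (SD, n = 2 each), came from values that did not overlap between the fractions, with the smallest p the two-sided exact permutation test allows, 0.33. Of the 13 regions 7 ranked higher in both EpCAM-positive libraries and 1 in both EpCAM-negative libraries, against 22% and 21.6% of all shared regions. By −log10 q the counts were 5 and 1, against 21% and 20.6%. The median difference in percentile, EpCAM-positive minus EpCAM-negative, was 7.58 for tRNA regions, 1.55 for histone regions and 0.0731 for all shared regions. Whether the tRNA and histone regions differ in this was not tested. Nor was the part of near-identical tRNA copies.

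**Figure D5:**
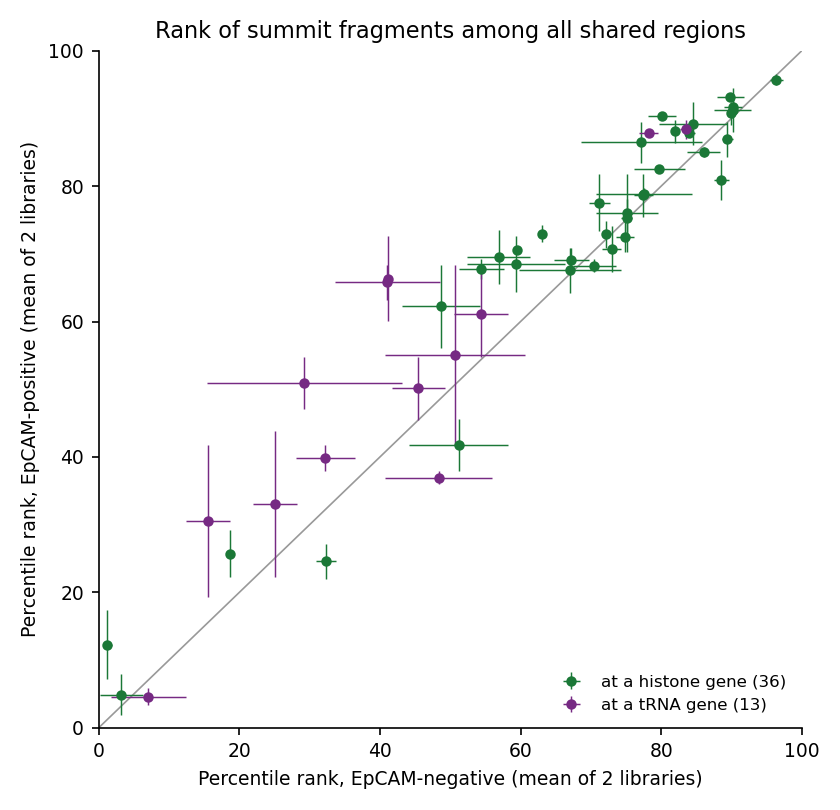
Percentile rank of summit fragments among the 16761 shared regions, EpCAM-negative (horizontal axis) against EpCAM-positive (vertical axis), for the 36 regions at histone genes and the 13 at tRNA genes. Points are means of 2 libraries and bars span both libraries; most histone points lie near the diagonal, and 2 tRNA points at 41.1 and 41.2 on the horizontal axis lie at 65.8 and 66.3 on the vertical one.

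Genes outside the spans that serve the histone genes were nearly all open. All 10 genes listed for the histone locus body and histone transcription had a peak in all 4 libraries, as did 51.1% of all protein-coding genes, the share to read beside each of these lists. Npat, the scaffold of that body and an activator of histone transcription, showed 186 and 181 summit fragments in the EpCAM-positive pair, compared with 131 and 153 in the EpCAM-negative pair. Casp8ap2, which encodes the histone locus body protein FLASH, had 109 and 105 against 102 and 98, and Hinfp, the factor that binds H4 site II, had 88 and 99 against 79 and 79. By −log10 q within each list, Npat and Hinfp overlapped between fractions, and Casp8ap2 stood at the 96.7 and 96.4 percentile in the EpCAM-positive lists and at 97.2 in both EpCAM-negative lists. All 13 genes for the processing and turnover of histone mRNA had a peak in all 4 libraries, beside the same 51.1%, among them Slbp, which encodes the stem-loop binding protein, with 93 and 87 against 100 and 68. All 9 histone chaperone genes did so too. The 4 replication-dependent histone loci listed outside the spans were also called in all 4 libraries. One of them, H2bu1-ps, is a pseudogene by its symbol and shares its peak with H2aw.

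Of the 9 replication-independent variant genes, 7 had a peak in all 4 libraries, against 51.1% of protein-coding genes. H1f0, the linker histone of cells that leave the cycle, had 12 and 18 fragments in the EpCAM-positive libraries and no peak in the EpCAM-negative ones, a pattern of 1.3% of protein-coding genes. H1f10 was called in EpCAM-positive library 1 alone, with 11 fragments. H2az1, which encodes H2A.Z, had 59 and 80 against 57 and 58, and Cenpa, the centromeric H3, had 28 and 39 against 37 and 44. By −log10 q percentile within each list, H2az1 overlapped between fractions, at 76.4 and 87.3 against 84.2 and 84.4, and Cenpa stood higher in both EpCAM-negative lists, at 66.3 and 78.4 against 81.5 and 87.8. These percentiles come from lists of different lengths and are not a measure of change.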

How the data were processed

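ATAC-seq was measured in 4 libraries, 2 per fraction. Per the submitters' processing notes, MACS3, Bowtie2, Trim Galore, Trimmomatic, FastQC, Picard, SAMtools, deepTools and bedtools were used with the mm10 (GRCm38) build. The sources used here do not give versions, settings, the handling of duplicates and of fragments that fit several places, or any shift for the transposase offset. The authors deposited 1 narrow peak list for each library, made without pooling. Each deposited list gives a display score, a fold over local background, the −log10 of the p-value and of the q-value, and a summit offset. These are the authors' values for single peaks and were used only within a list.

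Summit fragments and local background were solved as the whole number that reproduces both the fold and the −log10 p within 0.01, assuming a Poisson p-value and a fold whose numerator and denominator each carry an extra 1. A solution was found for 100% of peaks in each list. The caller may have counted reads instead of fragments. Peaks overlapping by at least 1 bp were merged into regions. A gene had a peak when a peak overlapped the gene or 500 bp beyond either end. Genes were taken from RefSeq (GRCm38.p6), where 6 histone gene models are over 1000 bp. Python 3.11.15, pandas 2.3.3, numpy 2.4.6 and scipy 1.17.1 were used, and the solving and merging were tested on simulated data. The counts of genes with a peak were compared by an exact permutation test over libraries. The ranks among shared regions, the summit positions, the motifs and the near-copies were added after the data were seen.

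Named genes were the 3 of each class with the highest mean −log10 q, every gene with a peak in some or no libraries, those nearest to a region of 1 fraction, the 5 strongest non-histone genes, and fixed lists of genes that act on histone genes. The members and lists were chosen with earlier results of these data known. Alternatives were the window, the −log10 q minimum, lists of equal length, the merging distance, each library left out and a replicate block.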

Additional observations from a re-analysis of the deposited data

How the results depend on the processing

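Over 7 counts and values of the histone spans, 70 alternatives were computed. In 56 of them a count stayed within 1.5 times the count reported, the percentile within 1 SD, or the difference between fractions kept its sign, whatever its size. The number of histone genes with a peak in all 4 libraries ran from 34 over the promoter window, an alternative added after the data were seen, to 50, and from 47 to 49 with 1 library left out. The difference between fractions in genes with a peak was -0.5 over the gene body only, 0 at a −log10 q of at least 5 and 0 over the promoter window, and ran from -2 to -1 with 1 library left out. With the replicate number as a block it was -1.5 genes (exact sign-flip p = 0.5, the smallest that 2 pairs allow); the labels give the libraries a number but nothing that pairs them. The EpCAM-positive-only count was 2 at a −log10 q of at least 5, 2 with lists of equal length and 2 when no EpCAM-negative peak could lie within 500 bp. With 1 library left out it ran from 7 to 13, and the EpCAM-negative-only count from 2 to 6. The median percentile of peaks at histone genes was 57.7 by fold in place of −log10 q. The number of non-histone genes with a peak in all 4 libraries was 5 under each of its alternatives. Depth is known only relative to the lowest background; with it unknown as a count, no interval was given for a single peak.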
